A study of Mus musculus with 9 samples.

Results

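The 10 genes Hamp, Hamp2, Bmp2, Bmp6, Id1, Smad6, Smad7, Tfrc, Tfr2 and Slc40a1 were chosen by name, as the genes of the route from bone morphogenetic protein (BMP) signaling to the iron hormone hepcidin and to the proteins that carry iron into and out of cells. They are 10 of 43346 genes in the count table, and 10 of 10 had enough reads to be tested. Liver RNA of C57/BL6 mice aged 12 weeks was sequenced in 9 libraries, 3 from each of 3 groups; each library is called a liver here. Baseline is tissue resected at 70% partial hepatectomy from vehicle-treated mice (vehicle, 0 h). The second group is the regenerating remnant of vehicle-treated mice at 40 h, and the third is the 40 h remnant of mice given NSC-87877 (NSC), a small molecule inhibitor of the phosphatases SHP1 and SHP2. NSC was given at 7.5 mg/kg per dose, 2 doses a day, which is 15 mg/kg a day, by intraperitoneal injection in saline. Per the labels dosing began 12 h before surgery, so baseline livers had already been exposed to vehicle. Baseline tissue from NSC-treated mice was not analysed here, and NSC at 40 h was therefore compared with the vehicle baseline. The sources used here do not say whether the vehicle samples at 0 h and 40 h came from the same mice, and the tests treated all 9 as separate samples.

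Hepcidin is a small peptide made by hepatocytes that binds ferroportin, the iron exporter encoded by Slc40a1, and causes its loss from the cell surface. Its gene is switched on by BMP ligands, above all BMP2 and BMP6 from sinusoidal endothelial cells, which act through receptors and SMAD transcription factors on hepatocytes. Inflammatory cytokines raise it through STAT3. Transferrin receptor 1 (Tfrc) takes up transferrin-bound iron, and transferrin receptor 2 (Tfr2) acts in hepatocytes as a sensor that feeds into hepcidin control.

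Mice carry a pair of hepcidin genes side by side on chromosome 7. In the deposited mouse coordinates (GRCm38), Hamp (ENSMUSG00000050440) lies at chr7:30942371-30944017 and Hamp2 (ENSMUSG00000056978) at chr7:30922372-30924181, both on the minus strand. The 250 bases before each start site are shown because the copies differ there in a BMP-type motif. They come from RefSeq (GRCm38.p6), at chr7:30944030-30944279 for Hamp and chr7:30924182-30924431 for Hamp2, and are written 5′ to 3′ on the minus strand. Capitals mark GGCGCC, the core letters of BMP-responsive elements, and TTCNNNGAA, the letters bound by STAT proteins.
Hamp upstream: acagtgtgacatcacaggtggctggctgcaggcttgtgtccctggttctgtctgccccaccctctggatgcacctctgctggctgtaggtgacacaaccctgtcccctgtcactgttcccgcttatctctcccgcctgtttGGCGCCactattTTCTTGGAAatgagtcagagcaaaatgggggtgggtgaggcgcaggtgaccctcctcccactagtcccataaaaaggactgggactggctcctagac
Hamp2 upstream: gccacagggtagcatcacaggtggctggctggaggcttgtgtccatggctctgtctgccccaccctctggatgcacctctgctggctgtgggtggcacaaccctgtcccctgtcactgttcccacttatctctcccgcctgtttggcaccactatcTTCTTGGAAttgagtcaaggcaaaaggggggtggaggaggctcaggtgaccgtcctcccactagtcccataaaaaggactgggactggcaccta
The Hamp stretch held 1 GGCGCC, with its first base at position -109, and 1 TTCNNNGAA at -97. The Hamp2 stretch held TTCNNNGAA at -94 and no GGCGCC. Over an alignment of 253 columns, 227 bases (89.7%) were identical. Both motifs were searched on the written strand, and since each reads as itself on the opposite strand, this covers both. GGCGCC was in 9.59% and TTCNNNGAA in 7.02% of all 32851 promoter entries at the same length. Of the 10 genes, 6 had promoter entries, 9 in all. Among those of the other 4 genes (Tfrc, Tfr2, Smad6 and Bmp6), 1 of the Tfrc entries held GGCGCC, at -89. These matches describe letters only and do not show binding.

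Reads from stretches shared by the 2 hepcidin transcripts cannot be assigned with certainty. Of the 50-base stretches in each GENCODE M21 transcript, 16.6% of those in Hamp and 15.5% of those in Hamp2 also occurred in the other. At 75 bases the shares were 3.87% and 3.58%. These shares count exact matches only and do not set a bound on how uncertain the split between the copies is.

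The 9 libraries held 23997363 to 42887589 counts, with group medians of 32971376 at baseline, 37872295 for vehicle at 40 h and 28786619 for NSC. Levels are given in CPM, counts scaled to the depth of each library with TMM factors, and as FPKM, which divides by gene length, where genes are compared with each other. A gene was called when its adjusted p was under 0.05, by edgeR's quasi-likelihood test with Benjamini-Hochberg adjustment over 15024 genes. Hepatocyte markers summed to 126447 to 135701 CPM at baseline, 99990.1 to 136932 with vehicle and 103074 to 117595 with NSC. Baseline liver 2 stood apart in acute phase transcripts: Saa1 was 4.33 times, Saa2 8.68 times and Saa3 12.2 times the mean of the other baseline livers. For Hamp, Hamp2, Id1, Id3 and Smad7, results without it are given too. In whole liver, fewer cells of a type and less RNA per cell cannot be told apart. The p-values rest on a spread pooled over the 3 groups of 3 livers and partly shared across genes. An exact permutation test of 3 against 3 cannot go below 0.1.

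By FPKM, which is per gene length, the baseline means ran from Hamp (1487), Tfr2 (165) and Hamp2 (76.4) through Slc40a1 (9.07), Tfrc (4.65) and Bmp2 (2.87) to Id1 (1.71), Bmp6 (1.47), Smad7 (0.964) and Smad6 (0.736). The lowest Hamp liver (598) was above the highest Tfr2 liver (182), and from Hamp down to Tfrc no gene overlapped the next. Tfrc (3.27 to 6.57) overlapped Bmp2 (2.23 to 3.59), and further down each gene also overlapped the next in the order.

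**Figure D1:**
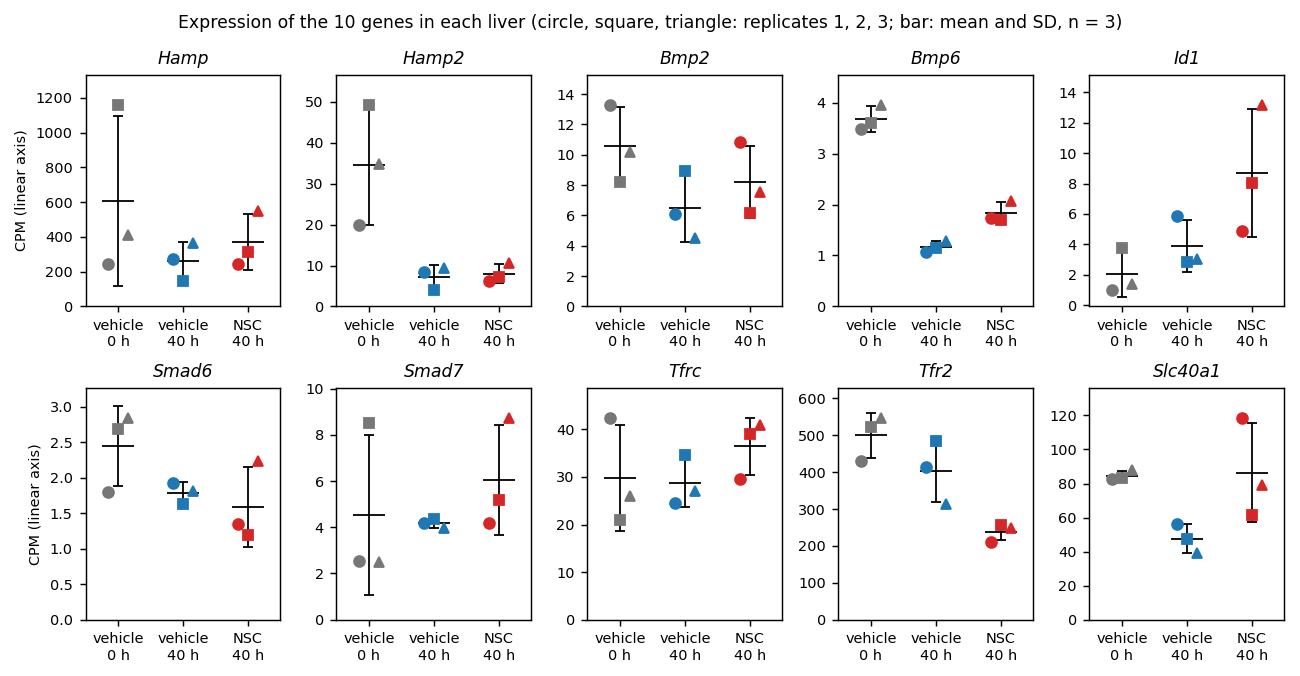
CPM of each of the 10 genes in each of the 9 livers (linear axes), with the mean and SD of 3 livers. Bmp6 at baseline (3.48 to 3.96 CPM) lies above all 40 h livers, while the Hamp baseline spans 245 to 1161 CPM.

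The ligand Bmp6 fell after hepatectomy in both arms, and Bmp2 did not pass the test in either. Bmp6 (chr13:38345716-38499728, plus strand) was at 3.48, 3.60 and 3.96 CPM in the baseline livers, at 1.08, 1.14 and 1.29 CPM with vehicle at 40 h and at 1.74, 1.70 and 2.07 CPM with NSC. All 6 livers at 40 h were below all 3 baseline livers, and all NSC livers were above all vehicle livers. The log2 fold change from baseline was -1.65 ± 0.25 (SE) with vehicle (edgeR adjusted p = 0.000814), a level 3.15-fold lower, and -1.002 ± 0.24 with NSC (edgeR adjusted p = 0.00723), 2.00-fold lower. With a correction for GC content the NSC value was -0.65 (edgeR adjusted p = 0.0514) and was no longer called. The difference between the 40 h groups was 0.65 ± 0.25 (95% interval 0.11 to 1.19) and did not pass (edgeR adjusted p = 0.187). These levels rest on 35 to 120 counts a library.

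Bmp2 (chr2:133552159-133562885, plus strand) was at 13.3, 8.21 and 10.2 CPM at baseline, 6.08, 8.94 and 4.50 CPM with vehicle, and 10.8, 6.18 and 7.55 CPM with NSC. The 3 groups overlapped. The log2 fold changes were -0.69 ± 0.29 with vehicle (edgeR adjusted p = 0.0999) and -0.36 ± 0.29 with NSC (edgeR adjusted p = 0.347). Without vehicle liver 2 the vehicle value was -0.99 and was called (edgeR adjusted p = 0.0426). Between the 40 h groups the difference was 0.33 ± 0.29 (edgeR adjusted p = 0.550). By FPKM, Bmp2 was 1.55 to 2.59 times the level of Bmp6 at baseline, 2.36 to 5.32 times with vehicle and 2.47 to 4.22 times with NSC.

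Markers of sinusoidal endothelial cells, the known main source of both ligands, summed to 299 to 320.3 CPM at baseline. They summed to 186 to 281 CPM with vehicle and 202 to 346 CPM with NSC. Of 10 markers, 3 fell with vehicle and 2 with NSC, where 11% and 16.5% of all genes fell. The vehicle count was 1 without vehicle liver 1 or without vehicle liver 3, and the NSC count was 0 without NSC liver 2, 4 without NSC liver 1, and 1 without baseline liver 2, baseline liver 3 or NSC liver 3. No marker was at 0 in every library. Per 100 CPM of these markers, Bmp6 was at 1.12 to 1.32 CPM at baseline. It was at 0.405 to 0.643 with vehicle and 0.503 to 0.928 with NSC, and baseline overlapped neither 40 h group. Bmp2 on the same scale was 2.56 to 4.43, 2.24 to 3.27 and 3.05 to 3.38, and the groups overlapped. Some of the markers were themselves called lower, so their sum is not a cell count. The part of these cells in the Bmp6 and Bmp2 levels was not tested.

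Of the genes that BMP signaling is known to induce, Id1 rose in the NSC arm, while Smad6 and Smad7 did not pass in either arm. Id1 (chr2:152736251-152737410, plus strand), an inhibitor of helix-loop-helix factors, was at 0.979, 3.76 and 1.42 CPM at baseline, 5.88, 2.82 and 3.03 CPM with vehicle and 4.86, 8.05 and 13.2 CPM with NSC. Every NSC liver was above every baseline liver, and the vehicle livers overlapped both other groups. The log2 fold change was 2.08 ± 0.55 with NSC (edgeR adjusted p = 0.0169), 4.21-fold higher, and 0.93 ± 0.55 with vehicle (edgeR adjusted p = 0.249). Without baseline liver 3 the NSC value was 1.87 (edgeR adjusted p = 0.0674), and with all genes of at least 1 count tested it was 2.07 (edgeR adjusted p = 0.0575). Without baseline liver 2 the NSC value was 2.85 (edgeR adjusted p = 0.00273), and the vehicle value was 1.71 and was called (edgeR adjusted p = 0.0328). The difference between the 40 h groups was 1.14 ± 0.53 (95% interval -0.04 to 2.33; edgeR adjusted p = 0.271).

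Smad6 and Smad7 encode inhibitory SMAD proteins that dampen the pathway. Smad7 (chr18:75367529-75395935, plus strand) was at 2.53, 8.52 and 2.51 CPM at baseline, 4.18, 4.35 and 3.99 CPM with vehicle and 4.20, 5.16 and 8.73 CPM with NSC. Baseline liver 2 was 3.38 times the mean of the other baseline livers and lay inside the NSC range. The log2 fold changes were -0.12 ± 0.46 with vehicle (edgeR adjusted p = 0.882) and 0.41 ± 0.46 with NSC (edgeR adjusted p = 0.518). Without baseline liver 2 they were 0.73 (edgeR adjusted p = 0.131) and 1.25 (edgeR adjusted p = 0.0139), so that the vehicle value changed sign and the NSC value was called. NSC and vehicle differed by 0.53 ± 0.46 (edgeR adjusted p = 0.550). Smad6 (chr9:63953076-64022059, minus strand) was at 1.80, 2.69 and 2.84 CPM at baseline, 1.93, 1.63 and 1.81 CPM with vehicle and 1.35, 1.19 and 2.23 CPM with NSC. The groups overlapped. Its log2 fold changes were -0.45 ± 0.31 (edgeR adjusted p = 0.317) and -0.62 ± 0.31 (edgeR adjusted p = 0.140), and without NSC liver 3 the latter was -0.94 and was called (edgeR adjusted p = 0.0401). NSC and vehicle differed by -0.18 ± 0.31 (edgeR adjusted p = 0.788), and by 0.20 with the GC correction.

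The hepcidin genes differed from each other: Hamp2 fell in both arms, and Hamp did not pass in either. Hamp2 was at 19.8, 49.3 and 34.7 CPM at baseline, 8.43, 3.94 and 9.49 CPM with vehicle and 6.12, 7.13 and 10.6 CPM with NSC. Each 40 h liver was below each baseline liver. The log2 fold changes were -2.25 ± 0.41 with vehicle (edgeR adjusted p = 0.00478), 4.77-fold lower, and -2.13 ± 0.41 with NSC (edgeR adjusted p = 0.00416), 4.37-fold lower. In a fit of the vehicle and baseline livers alone with the replicate number as a block, a setting added after the data were seen, the vehicle value was -2.21 and was not called (edgeR adjusted p = 0.121). NSC and vehicle differed by 0.12 ± 0.40 (edgeR adjusted p = 0.892), a value that was below 0 without vehicle liver 2 (-0.18) or NSC liver 3 (-0.13).

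Hamp was at 245, 1161 and 409 CPM at baseline, 273, 146 and 362 CPM with vehicle and 245, 313 and 550.4 CPM with NSC. The groups overlapped, and baseline liver 2 was 3.55 times the mean of the other baseline livers. The log2 fold changes were -1.22 ± 0.62 with vehicle (edgeR adjusted p = 0.200) and -0.71 ± 0.62 with NSC (edgeR adjusted p = 0.408). Without baseline liver 2 they were -0.33 (edgeR adjusted p = 0.657) and 0.17 (edgeR adjusted p = 0.803). NSC and vehicle differed by 0.50 ± 0.62 (edgeR adjusted p = 0.682). The same liver was 1.81 times the others for Hamp2, whose values without it were still called.

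Hamp2 made up 7.48%, 4.08% and 7.82% of the Hamp and Hamp2 counts in the baseline livers, 3.00%, 2.62% and 2.55% with vehicle and 2.44%, 2.22% and 1.88% with NSC. All 40 h livers were below all baseline livers. The widest 95% Wilson interval, in baseline liver 1, was 6.94% to 8.06%, and these intervals cover counting error only. The share does not depend on the scaling of libraries, but it does depend on how reads shared by the copies were assigned.

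**Figure D2:**
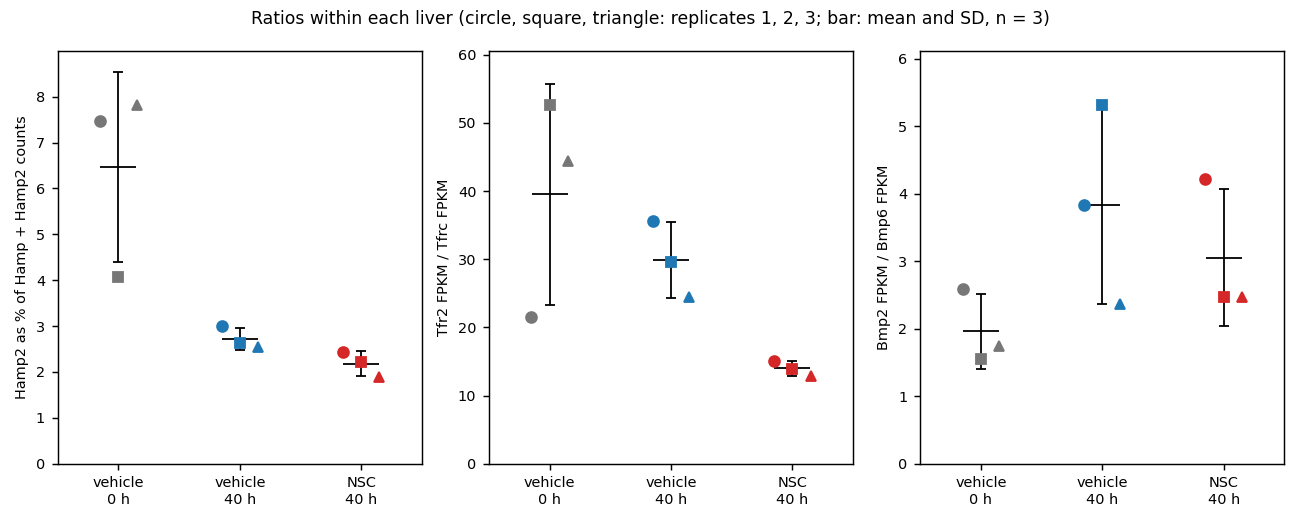
Ratios within each liver with the mean and SD of 3 livers: the percent of Hamp and Hamp2 counts that came from Hamp2, Tfr2 FPKM over Tfrc FPKM, and Bmp2 FPKM over Bmp6 FPKM. The Hamp2 share lies at 4.08% to 7.82% at baseline and 1.88% to 3.00% at 40 h, and Tfr2 over Tfrc is lowest with NSC (12.9 to 15.1). The ratios carry no GC correction.

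As a description over 9 libraries that share their scaling, the correlation of log2 CPM deviations from the group mean was 0.94 for Hamp and Hamp2, 0.84 for Hamp and Id1, 0.82 for Hamp and Smad7, 0.86 for Id1 and Smad7, and -0.77 for Hamp and Bmp2. Over the 8 libraries without baseline liver 2 the values were 0.97, 0.67, 0.53, 0.72 and -0.78. For Hamp with Smad6 it was 0.67 over 9 and 0.76 over 8 libraries, and for Hamp with Bmp6 0.42 and 0.75, so that without that liver Smad6 and Bmp6 ranked above Id1 and Smad7. Baseline liver 2 was 3.13 times the other baseline livers for Id1 and 1.83 times for Id3. It was 0.969 times for Bmp6 and 0.700 times for Bmp2. The part of acute phase activity, raised in that liver, in its Hamp level was not tested.

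**Figure D3:**
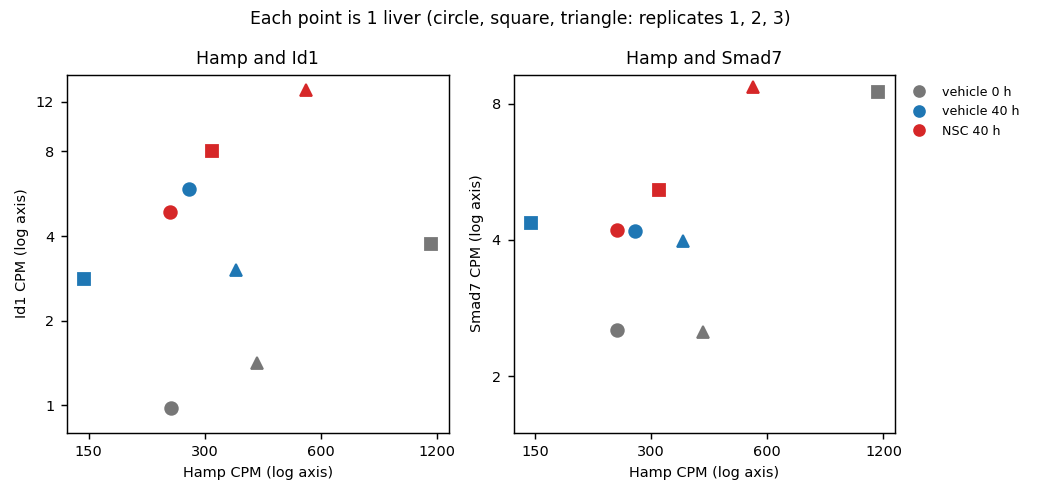
Id1 and Smad7 CPM against Hamp CPM in each of the 9 livers (log axes). Baseline liver 2, the grey square, has the highest Hamp level (1161 CPM) and the highest Id1 and Smad7 of the baseline livers (3.76 and 8.52 CPM).

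On the uptake side, Tfr2 fell in the NSC arm and Tfrc did not pass in either arm. Tfr2 (chr5:137569851-137587481, plus strand) was at 429.9, 523 and 547 CPM at baseline, 414, 484 and 314 CPM with vehicle and 212, 256 and 249 CPM with NSC. All NSC livers were below all livers of both other groups, and vehicle overlapped baseline. The log2 fold change was -1.06 ± 0.19 with NSC (edgeR adjusted p = 0.00152), 2.09-fold lower, and -0.31 ± 0.19 with vehicle (edgeR adjusted p = 0.261). Over 19 alternative settings the NSC value ran from -1.16 to -0.70 and was called in each. Between the 40 h groups the log2 fold change was -0.76 ± 0.19 (95% interval -1.17 to -0.35), which missed the threshold (edgeR adjusted p = 0.0913) and passed it with all genes of at least 1 count (edgeR adjusted p = 0.0468) and by DESeq2 (adjusted p = 0.00864). With the GC correction it was -0.39 (edgeR adjusted p = 0.413).

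Tfrc (chr16:32608920-32632794, plus strand) was at 42.4, 21.0 and 26.0 CPM at baseline, 24.6, 34.6 and 27.1 CPM with vehicle and 29.6, 38.9 and 40.9 CPM with NSC, and the groups overlapped. The log2 fold changes were -0.05 ± 0.24 with vehicle (edgeR adjusted p = 0.905) and 0.29 ± 0.24 with NSC (edgeR adjusted p = 0.379). Without baseline liver 1, the highest of all, the NSC value was 0.63 and was called (edgeR adjusted p = 0.0463), and with the GC correction it was -0.27. NSC and vehicle differed by 0.34 ± 0.24 (edgeR adjusted p = 0.455), and by -0.02 with the GC correction. By FPKM, Tfr2 was 21.4, 52.6 and 44.4 times Tfrc at baseline, 35.5, 29.6 and 24.5 times with vehicle, and 15.1, 13.9 and 12.9 times with NSC. The NSC ratios were below all others. They carry no GC correction, and the longest transcripts differ in GC content (57.8% for Tfr2, 39.8% for Tfrc). With that correction the log2 difference between the 40 h groups was -0.39 for Tfr2 and -0.02 for Tfrc. Erythroid markers, whose cells also carry Tfrc, summed to 228 to 328 CPM at baseline, 106 to 186 CPM with vehicle and 129 to 231 CPM with NSC, and their part in the Tfrc level was not tested.

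The exporter Slc40a1 (chr1:45908068-45926523, minus strand) fell with vehicle and was not called with NSC. It was at 82.4, 83.1 and 88.1 CPM at baseline, 56.4, 47.3 and 39.1 CPM with vehicle and 118, 61.6 and 78.9 CPM with NSC. All vehicle livers were below all others, and the NSC livers lay on both sides of baseline. The log2 fold change was -0.83 ± 0.22 with vehicle (edgeR adjusted p = 0.0172), 1.77-fold lower, and 0.03 ± 0.22 with NSC (95% interval -0.44 to 0.50; edgeR adjusted p = 0.927). With the GC correction the NSC value was -0.48 (edgeR adjusted p = 0.139), and its sign was reversed in 5 of 19 alternative settings. The vehicle call was lost without baseline liver 3 (-0.79, edgeR adjusted p = 0.0582), without vehicle liver 2 (-0.82, edgeR adjusted p = 0.0539) and without vehicle liver 3 (-0.70, edgeR adjusted p = 0.0775).

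Between the 40 h groups, Slc40a1 was 0.86 ± 0.22 higher on the log2 scale with NSC (95% interval 0.38 to 1.33). This missed the threshold (edgeR adjusted p = 0.0949), and passed it with all genes of at least 1 count (edgeR adjusted p = 0.0468) and by DESeq2 (adjusted p = 0.0157). With the GC correction it was 0.57 (edgeR adjusted p = 0.455), and without NSC liver 1 it was 0.56 (edgeR adjusted p = 0.0705). Markers of Kupffer cells, macrophages that are rich in ferroportin, summed to 217 to 299 CPM at baseline, 203 to 368 CPM with vehicle and 367 to 595 CPM with NSC, and 4 of 10 rose with NSC and 1 of 10 with vehicle, where 18.2% and 12.7% of all genes rose. The vehicle count was 2 without vehicle liver 2, vehicle liver 3 or NSC liver 1. NSC liver 1 held both the highest marker sum (595 CPM) and the highest Slc40a1 (118 CPM). Without it, the NSC value against baseline was -0.27 (edgeR adjusted p = 0.256). The part of these cells in the Slc40a1 level was not tested.

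Transcripts of Tfrc and Slc40a1 are known to carry iron-responsive elements, hairpins bound by iron regulatory proteins. The matches found in their UTRs are shown because none was found in the searched transcripts of the other 8 genes. The search used the longest GENCODE M21 transcript (GRCm38) of each gene with a coding sequence starting at ATG. Other transcripts were not searched. The pattern was a C and 5 further bases, then CAGTGN with a last base other than G. The next 5 bases had to be able to pair with the 5 before the loop. Each site is given as 30 bases of the transcript strand, with the loop in capitals.
Slc40a1 element 1: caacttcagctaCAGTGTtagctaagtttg
Tfrc element 1: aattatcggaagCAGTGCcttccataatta
Tfrc element 2: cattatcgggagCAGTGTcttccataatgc
Tfrc element 3: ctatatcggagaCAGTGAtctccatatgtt
Tfrc element 4: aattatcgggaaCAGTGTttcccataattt
Slc40a1 held 1 match, in its 5′ UTR, and Tfrc held 4, in its 3′ UTR. Over 21660 genes searched, 17 (0.0785%) had a match in the 5′ UTR and 99 (0.457%) in the 3′ UTR. The ferritin genes Fth1 and Ftl1 had 1 each in the 5′ UTR. Aco1, which encodes iron regulatory protein 1, fell by 0.63 on the log2 scale with vehicle (edgeR adjusted p = 0.0189) and by 0.78 with NSC (edgeR adjusted p = 0.00437). The vehicle call was lost without baseline liver 2 or 3 or vehicle liver 1 or 3 (edgeR adjusted p = 0.0533 to 0.0764).

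Counted together, 3 of the 10 genes were called with vehicle at 40 h (Hamp2, Bmp6 and Slc40a1, all lower), where 23.7% of all tested genes were called, 12.7% higher and 11% lower. With NSC, 4 of 10 were called, Id1 higher and Hamp2, Bmp6 and Tfr2 lower, against 34.7% of all genes, 18.2% higher and 16.5% lower. With an absolute log2 fold change over 1.5 required as well, 2 of 10 passed with vehicle (Hamp2 and Bmp6) against 7.22% of all genes, and 2 of 10 with NSC (Hamp2 and Id1) against 8.13%. The groups did not overlap for 3 of 10 genes with vehicle and 4 of 10 with NSC, where 46.3% and 47.1% of all genes did not. The median log2 fold change was -0.57 with vehicle and -0.49 with NSC, beside 0.01 over all genes in both.

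In the direct comparison of NSC with vehicle, 0 of 10 were called by edgeR, where 0.0399% of all genes (6 of 15024) were. At an unadjusted p under 0.05 there were 3 of 10 (Bmp6, Tfr2 and Slc40a1) and 2929 of all genes. DESeq2 called 2 (Tfr2 and Slc40a1), beside 5.96% of all genes (756 of 12686), and edgeR on all genes of at least 1 count called the same 2, beside 0.909% (221 of 24325). The edgeR count over all genes rested on single livers: it was 994 of 15390 (6.46%) without NSC liver 1, 111 without vehicle liver 3, and 0 without NSC liver 2, without NSC liver 3 or without vehicle liver 2. Of the 10 genes, 0 were called in any fit that left out 1 liver. The same 3 genes had 40 h groups that did not overlap, as did 22.5% of all genes. The median was 0.42, beside 0.02 over all genes. Both 40 h groups were set against the same baseline livers, so their values are given side by side and not as independent results.

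**Figure D4:**
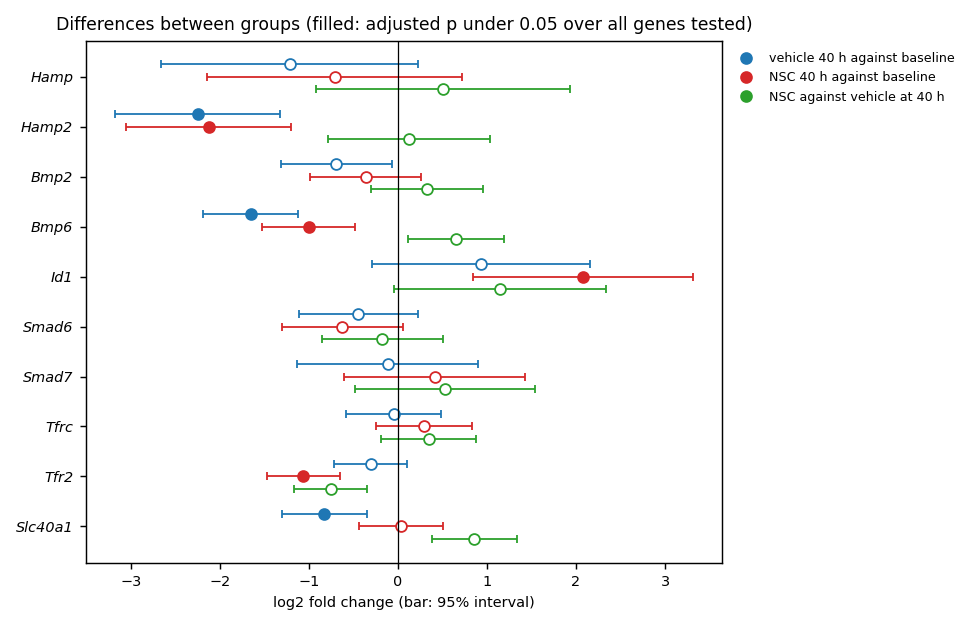
Log2 fold change of each of the 10 genes with its 95% interval in the 3 comparisons; filled points passed the adjusted p threshold of 0.05. Bmp6 and Hamp2 are lower in both arms (-1.65 and -2.25 with vehicle), Id1 (2.08) and Tfr2 (-1.06) passed with NSC, and Slc40a1 (-0.83) with vehicle.

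The wider BMP lists moved in a mixed way. Every list count against baseline from here on stands beside the same shares of all tested genes. With vehicle, 12.7% of all genes rose and 11% fell, and with NSC 18.2% rose and 16.5% fell. Of 9 ligands tested, 3 rose and 1 fell with vehicle, and 2 rose and 1 fell with NSC, with medians of 0.42 and 0.38. Inhbb, a subunit of activin B that can also raise hepcidin, rose by 1.83 ± 0.38 (edgeR adjusted p = 0.00480) and by 1.10 ± 0.38 (edgeR adjusted p = 0.0415) on the log2 scale. The NSC call was lost without any 1 of 6 livers, which were all but vehicle livers 2 and 3 and NSC liver 2 (edgeR adjusted p = 0.0586 to 0.128). Gdf2, which encodes BMP9 from stellate cells, rose by 0.71 ± 0.19 with vehicle (edgeR adjusted p = 0.0170), a call lost without baseline liver 3 or vehicle liver 2 (edgeR adjusted p = 0.0769 and 0.0626). Bmp8b was called higher in both arms, from a baseline of 0.03 to 0.13 CPM. It was at 0.34 to 1.48 CPM with vehicle and 0.35 to 0.93 CPM with NSC. These levels rest on 1 to 4 counts a library at baseline and 9 to 59 at 40 h.

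Of 11 receptors and co-receptors, 0 were called with vehicle (2 at an unadjusted p under 0.05, 0 by DESeq2). At that unadjusted cut 5566 of all 15024 genes passed with vehicle. With NSC 1 was called, the type I receptor Bmpr1a (0.91 ± 0.17, edgeR adjusted p = 0.00215), and 2 without baseline liver 2, vehicle liver 3, NSC liver 1 or NSC liver 3. Of 10 SMAD genes and their regulators, 1 fell with vehicle, and 1 rose and 1 fell with NSC. The one that fell in both was Smurf1, a ubiquitin ligase for SMAD proteins, by 0.75 and by 0.98. The SMAD count was 2 with vehicle without baseline liver 1 or 3, and 1 with NSC without vehicle liver 1, NSC liver 1 or NSC liver 2. Of 11 genes in the list of extracellular antagonists and Bambi, 4 rose with vehicle, and 3 rose and 2 fell with NSC. Bmper rose from 0.03 to 0.37 CPM at baseline to 3.03 to 8.93 CPM with vehicle and 2.00 to 6.96 CPM with NSC, while Chrd was among those that fell with NSC (-0.78, and -0.59 with edgeR adjusted p = 0.0624 without baseline liver 3). The vehicle count for the list of antagonists and Bambi was 2 without any 1 of the baseline or vehicle livers.

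Among 10 BMP target genes tested, 2 rose and 1 fell with vehicle, and 3 rose and 1 fell with NSC, with medians of 0.02 and 0.43. Id2 rose by 1.04 ± 0.18 with vehicle (edgeR adjusted p = 0.00197) and by 0.97 ± 0.18 with NSC (edgeR adjusted p = 0.00188). Id3 rose by 1.44 ± 0.37 (edgeR adjusted p = 0.0208) and by 1.19 ± 0.37 (edgeR adjusted p = 0.0321), and without baseline liver 2 by 1.79 (edgeR adjusted p = 0.0101) and by 1.54 (edgeR adjusted p = 0.0127). The Id3 call with vehicle was lost without baseline liver 1 or 3 or vehicle liver 1 or 3 (edgeR adjusted p = 0.0650 to 0.0766), and that with NSC without baseline liver 1 or 3 or NSC liver 3 (edgeR adjusted p = 0.0955 to 0.107). Atoh8, a BMP-induced factor that can activate the hepcidin gene, fell by 1.13 ± 0.25 (edgeR adjusted p = 0.00688) and by 1.41 ± 0.25 (edgeR adjusted p = 0.00150). The targets thus included called genes in both directions, and the NSC count was 2 without baseline liver 3.

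Of 14 regulators of hepcidin, 2 rose and 2 fell with vehicle, and 2 rose and 6 fell with NSC, with medians of -0.28 and -0.56. Fgl1, a liver-secreted protein that can bind BMP6, rose from 606 to 731 CPM at baseline to 2073 to 3221 CPM with vehicle and 2048 to 2882 CPM with NSC. Hgf, a growth factor known to suppress hepcidin, rose by 1.73 ± 0.29 and by 1.80 ± 0.29. Cebpa, a hepatocyte factor that activates Hamp, fell by 1.55 ± 0.22 and by 1.32 ± 0.22. Tmprss6, the protease that cleaves hemojuvelin and so limits hepcidin, fell by 0.61 ± 0.17 (edgeR adjusted p = 0.0204) and by 1.03 ± 0.17 (edgeR adjusted p = 0.000919). Its vehicle call was lost without baseline liver 3, vehicle liver 1 or vehicle liver 3 (edgeR adjusted p = 0.0642 to 0.103). The genes that fell thus included both activators and a suppressor of hepcidin.

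Of 11 iron import genes, 3 rose with vehicle, and 1 rose and 1 (Tfr2) fell with NSC. Steap4, a metalloreductase, rose by 2.91 ± 0.51 and by 2.44 ± 0.50, and Trf, transferrin itself, rose by 0.76 ± 0.22 with vehicle, a call lost without any 1 baseline liver or vehicle liver 2 (edgeR adjusted p = 0.0655 to 0.101). Of 8 storage and export genes, 1 rose and 1 (Slc40a1) fell with vehicle, and 1 rose with NSC. The riser was Cp, ceruloplasmin, a ferroxidase and acute phase protein, by 1.14 ± 0.24 and by 1.05 ± 0.24. The storage and export count was 1 with vehicle in the 3 fits that lost the Slc40a1 call, and 2 with NSC without NSC liver 3. Of 5 iron regulatory and hypoxia genes, 1 fell with vehicle, and 1 rose and 1 fell with NSC, of which 1 was called without baseline liver 2 or 3 or NSC liver 1 or 2. Of 15 mitochondrial iron and heme genes, 4 rose and 2 fell with vehicle, and 5 rose and 5 fell with NSC. Hmox1, which breaks down heme, rose by 1.51 ± 0.21 and by 1.30 ± 0.21, and Slc25a37, the mitochondrial iron importer, fell by 0.78 ± 0.12 and by 0.70 ± 0.12.

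**Figure D5:**
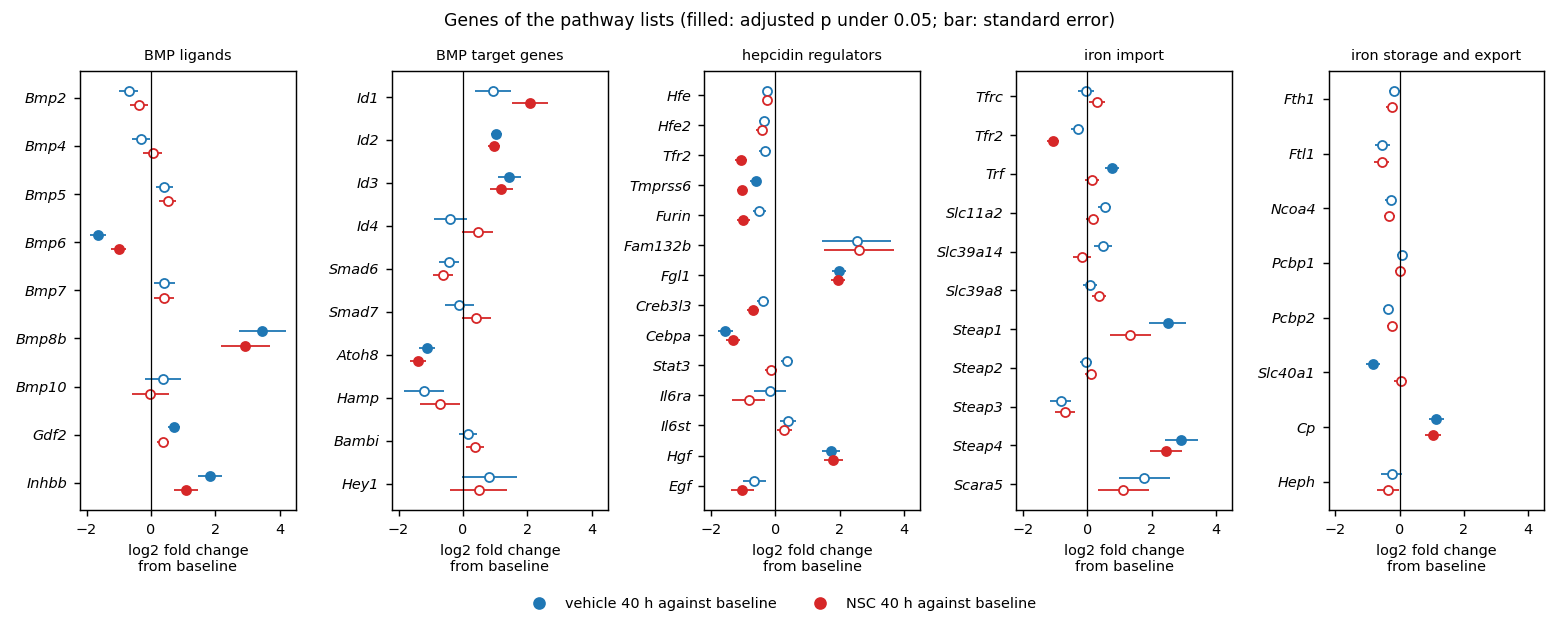
Log2 fold change from baseline, with its standard error, of the tested genes of 5 lists at 40 h with vehicle and with NSC; filled points passed the adjusted p threshold. The lists hold called genes on both sides of 0, such as Id2 (1.04) and Atoh8 (-1.13) among the BMP targets.

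The remaining lists describe the tissue around these genes. Their counts against baseline stand beside the shares of all genes given with the BMP lists. Acute phase genes summed to 26776 to 38548 CPM at baseline, 62791 to 94719.6 CPM with vehicle and 52616 to 86283 CPM with NSC, and 9 of 14 rose with vehicle and 10 of 14 with NSC. The NSC count was 6 without NSC liver 2. All 10 proliferation markers rose in both arms (9 with vehicle without baseline liver 3). Their sum was 31.1 to 32.6 CPM at baseline and 387 to 479.5 CPM with vehicle. With NSC it was 270.5 CPM in liver 1, below every vehicle liver, and 1006 and 851 CPM in livers 2 and 3, above every vehicle liver. Of 10 hepatocyte markers, 4 fell with vehicle and 5 with NSC. Of 10 stellate markers, 5 rose with vehicle, and 2 rose and 1 fell with NSC, of which 1 in all was called without baseline liver 3. Of 5 cholangiocyte markers, 4 and 3 rose, and the NSC count was 1 without baseline liver 1 or 2. Of 6 erythroid markers, 2 and 2 fell, and the vehicle count was 1 without baseline liver 2 or vehicle liver 1 or 3. Between the 40 h groups, 0 of 172 distinct list genes were called by edgeR. At an edgeR unadjusted p under 0.05 there were 42 of the 172, beside 2929 of all 15024 genes. DESeq2 called 17 of the 172, beside 5.96% of all genes. Without NSC liver 1 edgeR called 20 of the 172, beside 6.46% of all genes. Among them were 6 of 10 proliferation, 3 of 10 stellate and 2 of 10 Kupffer cell markers, and 3 genes of the list of extracellular BMP antagonists and Bambi. Without vehicle liver 3 edgeR called 4 list genes, without baseline liver 2 it called 1, and without any 1 of the other 6 livers 0. The part of the list genes in the values of the 10 genes was not tested.

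The genes with the most similar pattern were named by Pearson correlation of log2 CPM over 9 libraries, as a description that includes the differences between groups. For Hamp they were Tatdn3 (0.93), RP23-117H14.1 (0.93) and Fam219b (0.92). For Id1 they were Tmem237 (0.97), Tmem97 (0.96) and Yeats4 (0.96). For Tfrc they were Gm12655 (0.96), Gm20621 (0.88) and Strip2 (0.88), which had means under 1 CPM in each group.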

How the data were processed

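RNA was sequenced from 9 mouse liver samples in 3 groups of 3. The sources used here do not say whether baseline and 40 h vehicle samples came from the same mice, and none was paired in the main tests. The authors aligned the reads with STAR 2.6.1 and assigned them to genes with featureCounts of Subread 1.5.1, and deposited raw counts per gene. The deposited FPKM values follow from these counts, the library totals and gene lengths: recomputing them gave a largest relative difference of 4.96e-10. The submitters' notes name a human genome build, but the table holds mouse identifiers and coordinates, of which 78.8% equal those of GENCODE M21 on GRCm38.

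The deposited counts were fitted with edgeR 4.0.16 under R 4.3.3 (TMM factors, filterByExpr, robust quasi-likelihood fit, condition as the only term, all 9 libraries), and DESeq2 1.42.0 served as an alternative. Sequences and lists were handled in Python 3.11.15. CPM use TMM factors, and correlations use log2 CPM with a prior count of 2. On simulated data for vehicle against baseline (14746 genes), 175 of 200 genes changed 4-fold were recovered with 9 false calls, and for NSC against baseline (14746 genes) 163 of 200 with 18 false calls. The simulation changed fewer genes than were called in the real data, and only by 4-fold. Recovery of smaller changes, such as those of Bmp6, Tfr2 and Slc40a1, was not measured. All 10 genes are given in every comparison. From each list, at most 3 called genes per direction, ranked by adjusted p, were open to naming, and for Hamp, Id1 and Tfrc the 3 most correlated genes. The members and lists were chosen with earlier results of these data known. Alternatives changed the normalization, filter, test, GC correction, replicate block, samples fitted, threshold and left out each library. Depth was 23997363 to 42887589 counts a library. A gene and a sequence are not reported here.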

Additional observations from a re-analysis of the deposited data

How the results depend on the processing

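Over 19 alternatives for each of the 30 log2 fold changes of the 10 genes, 532 of 570 values kept their direction and side of the threshold, 8 lost the call, 9 gained it and 21 changed sign. Leaving out 1 library gave 2 to 4 called genes with vehicle, 3 to 5 with NSC and 0 to 0 between the 40 h groups. With a fold threshold added, 2 were called with NSC. Between the 40 h groups 2 were called with all genes of at least 1 count and 2 by DESeq2.

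None of the log2 fold changes that changed sign was called. With the replicate block, Smad7 was 0.0350 with vehicle (0.00521 with GC correction, 0.121 in the fit of only the groups compared) and Slc40a1 was -0.0185 with NSC (-0.522 with GC correction, -0.0178 in the fit of only the groups compared). In that last fit Tfrc was 0.00396 with vehicle. With the GC correction, alone and with the block, Tfrc was -0.269 and -0.271 with NSC and -0.0182 and -0.0124 between the 40 h groups, Smad6 was 0.200 and 0.181 there, and Slc40a1 was -0.480 with NSC without the block. Leaving out 1 library at a time gave Smad7 -0.405 to 0.730 and Tfrc -0.248 to 0.290 with vehicle, Hamp -1.12 to 0.175 and Slc40a1 -0.266 to 0.226 with NSC, and Hamp2 -0.179 to 0.354 between the 40 h groups.

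Deviations of same-numbered libraries correlated at -0.0479 to 0.134, and those of differently numbered libraries at -0.115 to 0.0659. These weak correlations do not settle whether the replicate numbers pair the livers. The block left the counts at 3, 4 and 0. The fit of only the groups compared with the block was added after the data were seen, and gave 2, 4 and 0; it ended the call of Hamp2 with vehicle (-2.21, edgeR adjusted p = 0.121). The causes of these shifts were not tested. Only 3 livers a group and low counts of Bmp6, Id1 and Smad6 limit the precision.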
